A study of Mus musculus with 8 samples.

Results

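Triglyceride synthesis and transport were followed through 10 genes in R1 mouse embryonic stem cells, a pluripotent line from the early mouse embryo. The genes were the acyltransferases Mogat2, Mogat1, Dgat1 and Dgat2, the lipoprotein genes Apob, Apoe and Mttp, the lipase gene Lpl, and the lipid carriers Cd36 and Fabp3. They are 10 of the 27670 genes on the array and were read by every non-control probe that the scanner tables name for one of them, 21 of 41174 probes. The set was chosen by the ratio of butyrate over LIF of Mogat2 on these same arrays, together with genes of the pathway around it, with their ratios already known. The ratios of the 10 genes are therefore a description, and no p-value is given for them.

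The butyrate group held 4 samples of R1 cells kept for 15 passages in sodium butyrate at 0.2 mM, an inhibitor of histone deacetylases that is itself a short fatty acid, without leukaemia inhibitory factor (LIF). The LIF group held 4 samples of R1 cells kept with LIF and without feeder cells. No passage number was available for the LIF samples, so time in culture may differ between the groups. LIF is the cytokine that keeps mouse embryonic stem cells undifferentiated. Both groups grew on gelatin in medium with serum replacement, and both are of 1 cell line. Each of 4 Agilent whole-genome arrays was hybridised with a butyrate sample in Cy5 and its same-numbered LIF sample in Cy3. No array had the dyes the other way round, and the effects of dye and of treatment cannot be told apart in any ratio. The pluripotency genes Pou5f1, Sox2 and Nanog were well above background on 4 of 4 arrays in both channels. Of the non-control spots, 62.7% to 63.9% were well above background in the butyrate channel and 57.9% to 61.2% in the LIF channel.

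Cells store and export fatty acids as triglyceride, which is built by adding acyl groups to a glycerol backbone. In most tissues the backbone is glycerol 3-phosphate, whereas enterocytes of the small intestine re-use absorbed monoacylglycerol through MOGAT enzymes, and DGAT enzymes add the last acyl group on both routes. Liver, intestine and yolk sac endoderm then load triglyceride onto apolipoprotein B with the transfer protein MTTP, and lipoprotein lipase releases the fatty acids again at the receiving tissue. CD36 and the fatty acid-binding proteins take up and carry the released fatty acids.

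Promoter sequence was available in the table used here for 6 of the 10 genes, and the windows of the 4 of them that were above background are shown, because they differ in their density of CG dinucleotides. Each line gives the 250 bases before a RefSeq transcript start in GRCm38.p6, 5′ to 3′, with CG in capitals. For Apoe the most upstream of 3 windows is shown.
Mogat1 chr1:78510810-78511059, plus strand: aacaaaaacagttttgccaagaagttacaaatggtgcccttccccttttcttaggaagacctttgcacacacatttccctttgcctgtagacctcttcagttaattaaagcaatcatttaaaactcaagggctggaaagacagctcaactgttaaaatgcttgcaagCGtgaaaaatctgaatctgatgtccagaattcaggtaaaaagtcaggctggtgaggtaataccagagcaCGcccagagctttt
Apoe chr7:19699189-19699438, minus strand: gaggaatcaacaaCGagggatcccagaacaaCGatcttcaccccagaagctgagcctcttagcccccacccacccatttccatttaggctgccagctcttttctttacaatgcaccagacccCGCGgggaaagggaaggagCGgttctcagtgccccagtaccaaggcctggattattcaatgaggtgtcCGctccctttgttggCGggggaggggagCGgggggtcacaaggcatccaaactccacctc
Mttp chr3:138143419-138143668, minus strand: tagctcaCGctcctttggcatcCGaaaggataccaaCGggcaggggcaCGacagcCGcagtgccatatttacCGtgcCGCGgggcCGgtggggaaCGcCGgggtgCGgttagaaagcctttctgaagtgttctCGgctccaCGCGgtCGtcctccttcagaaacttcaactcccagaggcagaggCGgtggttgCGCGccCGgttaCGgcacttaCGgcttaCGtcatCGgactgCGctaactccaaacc
Fabp3 chr4:130308488-130308737, plus strand: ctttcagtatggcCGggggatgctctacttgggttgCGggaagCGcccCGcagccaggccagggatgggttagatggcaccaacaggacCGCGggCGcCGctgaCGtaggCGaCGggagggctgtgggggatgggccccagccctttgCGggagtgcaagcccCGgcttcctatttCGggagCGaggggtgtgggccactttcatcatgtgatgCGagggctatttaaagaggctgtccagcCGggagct

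The Mttp window held 25 CG dinucleotides and the Fabp3 window 17. The Apoe window held 8 and the Mogat1 window 2, against a median of 6 over 32851 promoter windows of the same length. Their GC content was 61.2% for Mttp, 64.8% for Fabp3, 57.2% for Apoe and 41.2% for Mogat1, with a median of 52.4% over all windows. On either strand, none of the 4 printed windows contained the letters GGGCGG of the GC box, TATAAA of the TATA box, AGGTCA of the nuclear receptor half-site or CCAAT of the CCAAT box. Among the windows not printed, the second Apoe window held 2 matches to TATAAA and the third held none of the 4 motifs, the Apob window held 1 match to TATAAA, and the Cd36 window held 2 to GGGCGG, 1 to AGGTCA and 1 to CCAAT. Of all windows, 32.7% held GGGCGG, 12.4% TATAAA, 14% AGGTCA and 33.8% CCAAT. Of the genes with the CG-dense windows, Fabp3 had a ratio above 0 and Mttp one below it, which was -0.01 with median centring. Of the others, Mogat1 had a ratio above 0 and Apoe one below it.

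Of the 10 genes, 8 were measured above background, with 14 of the 21 probes. Above background means that at least 3 arrays found the probe well above it in one channel or the other. Mogat2, Mogat1, Dgat2, Lpl and Fabp3 were higher in butyrate, Apoe and Mttp were lower, and Dgat1 did not pass an adjusted p of 0.05 in the limma fit over all genes. Of 17190 genes tested, 75% passed in either direction, 41.7% higher and 33.3% lower. Among the 8 genes, Mogat2 and Lpl were at least 2-fold higher and Apoe at least 2-fold lower, where 4.97% of all genes were at least 2-fold higher and 1.97% at least 2-fold lower. The signals of the 4 butyrate and 4 LIF samples did not overlap for 6 of the 8, which were Apoe and the 5 higher genes. Over all genes 67.9% did not overlap, 38.6% with butyrate higher and 29.4% with butyrate lower. Taken probe by probe, 10 of the 14 passed as higher, 3 as lower and 1 did not pass, while 72.2% of all probes passed, 39.7% higher and 32.5% lower. The 10 belong to the 5 higher genes, and probes of 1 gene are not separate evidence. For the dimmer Mogat1 probes among them only butyrate was well above background. The median log2 ratio of the 8 genes was 0.30, and that of all genes was 0.03. The centre of the ratios is set by the normalization. When arrays were instead centred on their medians, without loess, the median over genes came to 0.41, so each ratio is relative to the loess centre.

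**Figure D1:**
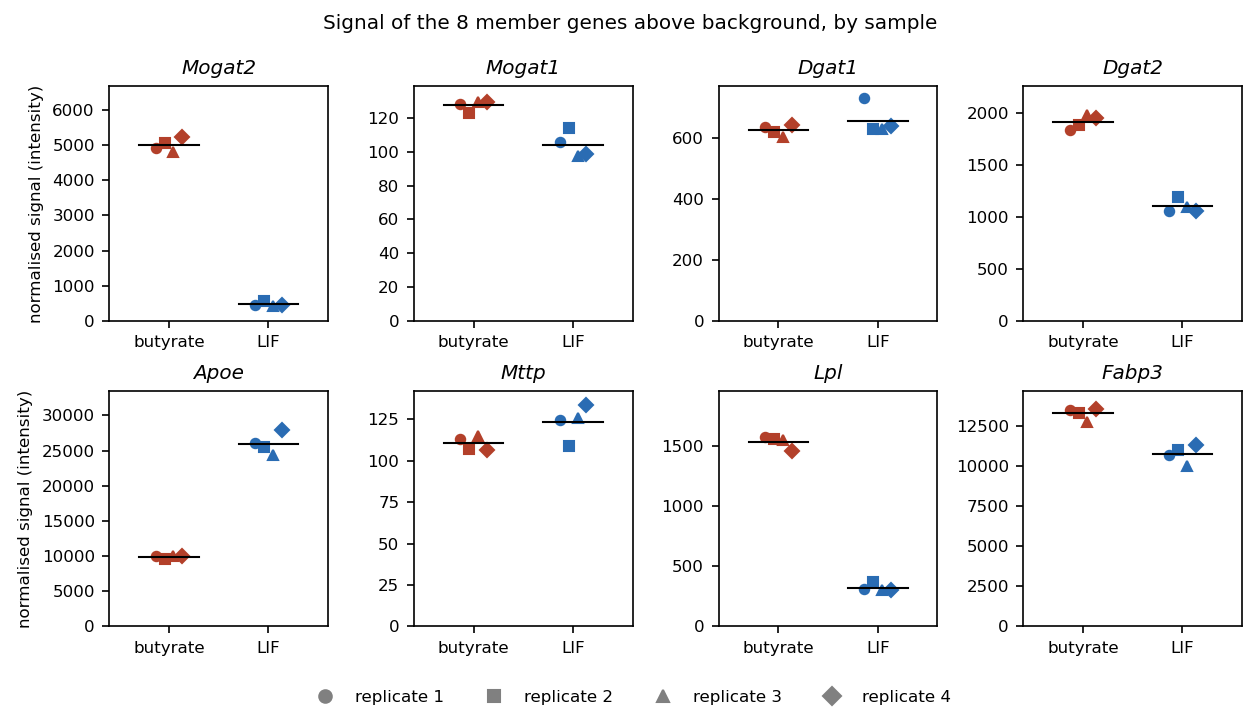
Normalised signal (linear intensity) of the 8 genes above background, 1 panel a gene with its own axis from 0, for 4 butyrate samples (left, red) and 4 LIF samples (right, blue). The symbol gives the replicate number, which is also the array, and the line gives the mean. The groups lie apart for Mogat2, Mogat1, Dgat2, Apoe, Lpl and Fabp3 and overlap for Dgat1 and Mttp.

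Mogat2 encodes the monoacylglycerol acyltransferase of intestinal fat absorption and is read by 1 probe for a transcript on chromosome 7. Its normalised signal was 4929, 5068, 4790 and 5233 in the butyrate samples, against 451, 565, 412 and 450 in the LIF samples. Every butyrate sample was far above every LIF sample. The means were 5005 ± 190 in butyrate and 470 ± 66.2 in LIF (SD, n = 4 each). The log2 ratio was 3.45, 3.16, 3.54 and 3.54 on arrays 1 to 4, a mean of 3.42 ± 0.18 or 10.7-fold, and it ranked 7 from the highest of 17190 genes. The lowest of the 4 ratios came from array 2, where the LIF signal was highest. The scanner software's own ratio was larger, at 12.4-fold (log2 3.63 ± 0.09).

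Array 2 also gave the highest LIF signal for 8 of the 14 member probes above background. Among the 854 genes at least 2-fold higher in butyrate it gave the lowest ratio for 566, or 66.3%. Without array 2 the log2 ratio of Mogat2 was 3.51, and leaving out each array in turn gave 3.38 to 3.51.

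Mogat1 encodes a second monoacylglycerol acyltransferase, and its gene is on chromosome 1. Its 3 probes were all dim. The brightest had signals of 128, 123, 129 and 129 in butyrate and 106, 114, 97.4 and 98.4 in LIF. The groups did not overlap, but the difference was small beside that of Mogat2, with means of 127 ± 3.12 in butyrate and 104 ± 7.74 in LIF and a log2 ratio of 0.30 ± 0.14 (1.23-fold). For the other probes only butyrate was well above background, on 4 of 4 arrays, and LIF was not on any. Their signals averaged 104 ± 0.51 and 95.5 ± 3.59 in butyrate, against 84.1 ± 5.52 and 78.4 ± 4.95 in LIF, so that butyrate was at least 1.24-fold higher at the first and at least 1.21-fold at the second. These bounds set the butyrate mean against the lowest signal well above background or the probe's own LIF signal, whichever was higher on each array.

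The size of the Mogat1 difference was not the same in the 2 ways of forming the ratio. An offset of 50 is added to every signal here, which pulls the ratios of dim probes towards 0. In the scanner software's ratio, which has no such offset, the same 3 probes were 1.82-fold, 6.87-fold and 5.03-fold higher in butyrate (log2 0.86 ± 0.28, 2.78 ± 0.25 and 2.33 ± 0.67). All 3 probes lay above 0 in both, and the fold is not fixed by these data.

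Dgat2 encodes one of the diacylglycerol acyltransferases that complete a triglyceride, and its gene is on chromosome 7. The brightest of 3 probes gave 1837, 1888, 1986 and 1953 in butyrate, against 1058, 1194, 1100 and 1063 in LIF. The groups were well apart, with a log2 ratio of 0.80 ± 0.10 (1.74-fold). The other probes were higher in butyrate by less, at 0.37 ± 0.12 (1.29-fold) and 0.19 ± 0.13 (1.14-fold). Their signals averaged 401 ± 13.4 and 191 ± 5.71 in butyrate, against 312 ± 18.2 and 168 ± 12.0 in LIF. The groups did not overlap for any of the 3 probes, and the order of the 3 ratios was the same on every array. The scanner software's ratios kept that order, at 0.76, 0.31 and 0.20. The mean over the 3 probes was 0.45.

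Dgat1 encodes the other diacylglycerol acyltransferase, unrelated in sequence to DGAT2, on chromosome 15. Its brightest probe gave 639, 621, 604 and 643 in butyrate and 733, 632, 630 and 639 in LIF. The groups overlapped, and the log2 ratio was -0.07 ± 0.09, on either side of 0 across arrays (-0.20, -0.02, -0.06 and 0.01). The other probe gave 416, 424, 434 and 452 in butyrate and 534, 460, 477 and 479 in LIF. Here the groups did not overlap, with a log2 ratio of -0.17 ± 0.13 and the lowest value, -0.36, again on array 1. The sign of Dgat1 depended on the scaling: the brightest probe stood at 0.51 with median centring and no loess, and at -0.19 and -0.20 with the scanner software's ratio and the authors' value table.

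**Figure D2:**
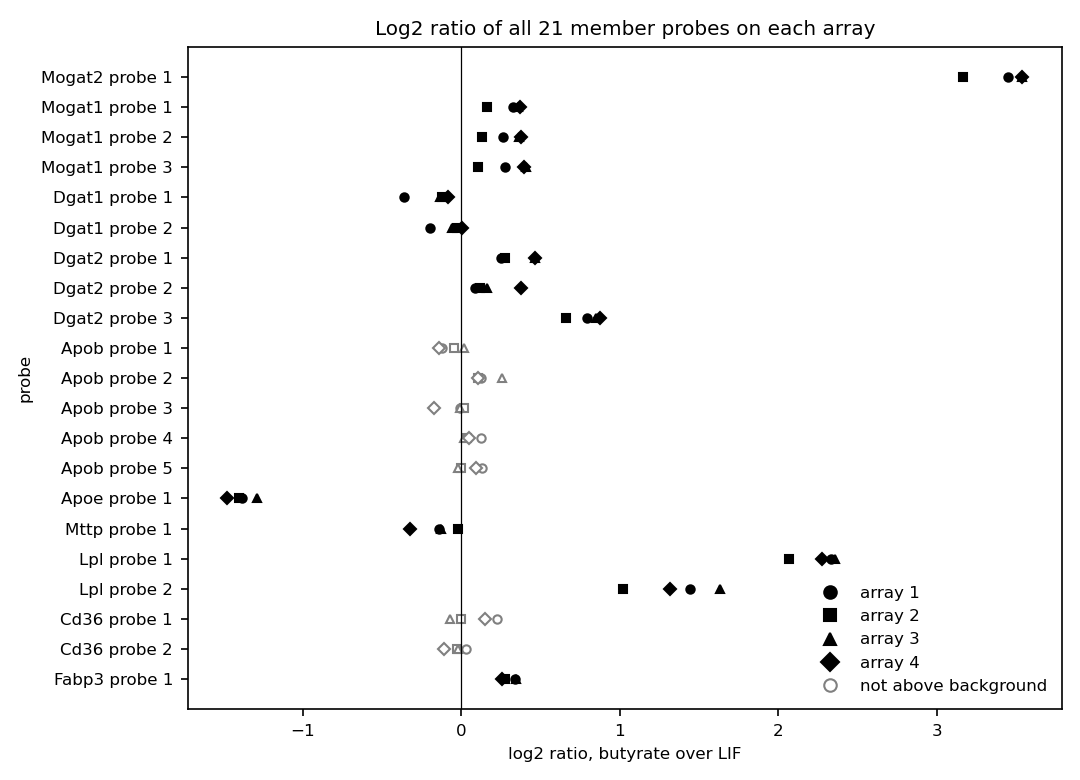
Log2 ratio of butyrate over LIF on each of 4 arrays (1 symbol an array) for all 21 member probes, filled for the 14 above background and open for the others. Mogat2 and Lpl lie furthest to the side of butyrate and Apoe to the side of LIF, and the probes of Dgat2 and of Lpl differ among themselves.

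Apoe encodes apolipoprotein E, the ligand by which lipoprotein remnants bind their receptors, on chromosome 7. Its probe is printed 10 times on each array. The mean signal of the 10 spots was 10016, 9631, 9963 and 10034 in butyrate, against 26103, 25470, 24368 and 27909 in LIF. Every butyrate sample was below every LIF sample, with means of 9911 ± 189 in butyrate and 25962 ± 1483 in LIF. The log2 ratio was -1.38, -1.40, -1.29 and -1.48, a mean of -1.39 ± 0.08 or 2.62-fold lower, and it ranked 108 from the lowest of 17190 genes. With median centring and no loess it was -0.89.

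The 10 spots show how far a ratio moves within an array. Their SD was 0.05 to 0.06 on the log2 scale within an array, and the SD of the 4 array means was 0.08. All 40 spot ratios lay between -1.60 and -1.25. The same 2 spots gave the lowest ratios on every array. Both spreads were small beside the distance of the mean ratio from 0.

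**Figure D3:**
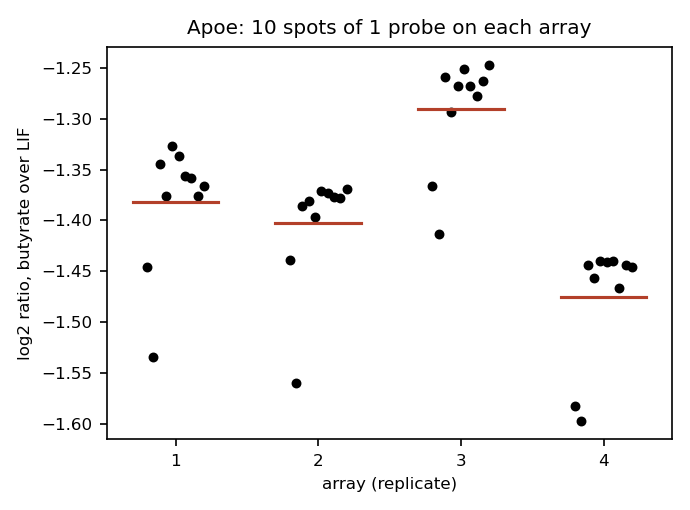
Log2 ratio of butyrate over LIF at each of the 10 Apoe spots on each of 4 arrays (points), with the array mean as a line. All spots lie between -1.60 and -1.25, and the array means run from -1.48 to -1.29.

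Mttp encodes the large subunit of the microsomal triglyceride transfer protein, on chromosome 3. Its signal was 113, 107, 115 and 107 in butyrate and 125, 109, 126 and 134 in LIF. The probe was dim and the groups overlapped, with means of 111 ± 4.24 in butyrate and 123 ± 10.4 in LIF. The log2 ratio of -0.15 ± 0.13 passed as lower in the fit over all genes, but not without array 1, 3 or 4 (-0.16, -0.16 and -0.10), and it was -0.01 with median centring. The scanner software's ratio was larger, at -0.65 ± 0.10 (1.57-fold lower) and between -0.78 and -0.56 on the 4 arrays, and the authors' value table gave -0.67. The size of the Mttp difference is therefore not fixed by these data. Apob encodes the protein that each chylomicron and very low density lipoprotein is built on, and its 5 probes were not measured. Their signals ran from 66.7 to 91.9 in butyrate and from 67.4 to 92.1 in LIF, and 1 of the 5 was well above background on a single array in both channels. A difference in Apob was therefore not detectable on these arrays.

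Lpl encodes lipoprotein lipase, which frees fatty acids from circulating triglyceride, on chromosome 8. The brighter of its 2 probes gave 1570, 1555, 1552 and 1453 in butyrate, against 312, 370, 302 and 299 in LIF. The groups lay far apart, with means of 1532 ± 53.3 in butyrate and 321 ± 33.2 in LIF and a log2 ratio of 2.26 ± 0.13 (4.79-fold, rank 71 from the highest). The other probe gave 416, 399, 431 and 395 in butyrate and 153, 196, 139 and 159 in LIF. It was also apart in every sample, at a smaller log2 ratio of 1.35 ± 0.26 (2.56-fold). The scanner software's ratios were 2.56 and 1.91, with the same order. Genes of chromosome 8 as a whole had a median log2 ratio of 0.29 over 764 genes, against 0.02 for the rest of the autosomes. Chromosomes 11 and 19 also had high medians, at 0.21 and 0.18. Of the lipid genes named below, Gpat4 and Got2 are on chromosome 8 and P4hb and Srebf1 on chromosome 11. Lipa, Gpam and Vldlr are on chromosome 19. The part of these chromosome medians in the ratios of Lpl and of those genes was not tested.

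Fabp3 encodes the fatty acid-binding protein of heart and muscle, on chromosome 4. Its signal was 13501, 13260, 12713 and 13556 in butyrate and 10689, 10957, 9982 and 11319 in LIF. The groups did not overlap, and the small log2 ratio of 0.31 ± 0.04 (1.24-fold) was even across the arrays. Cd36 encodes a fatty acid and lipoprotein scavenger receptor, and neither of its 2 probes, on chromosome 5, was above background on any array. Their signals ran from 73.1 to 81.3 in butyrate and from 66.4 to 83.0 in LIF, with log2 ratios of 0.08 ± 0.13 and -0.03 ± 0.06. No difference in Cd36 was detectable.

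**Figure D4:**
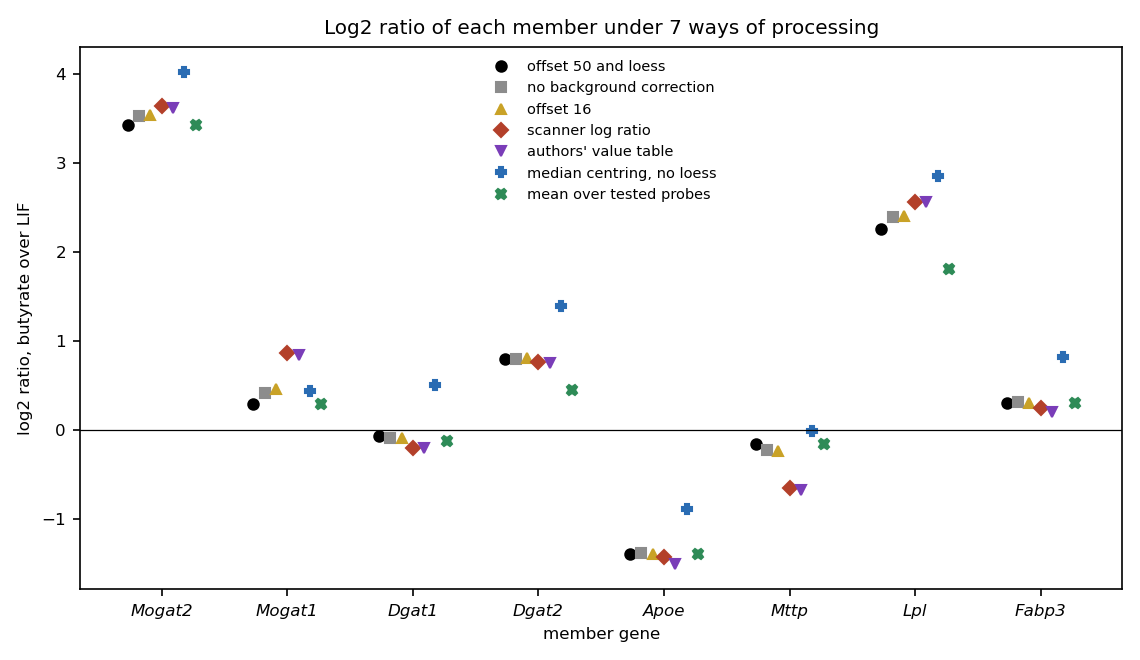
Log2 ratio of butyrate over LIF of the 8 genes under 7 ways of processing, offset 50 with loess being the one reported. Mogat2 stays between 3.42 and 4.02, Lpl between 1.81 and 2.85 and Apoe between -1.50 and -0.89, while Dgat1 crosses 0.

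The genes with the 4 array ratios nearest to those of Mogat2, by Euclidean distance over the 4 log2 ratios, were Sct, the hormone secretin (distance 0.30), 3830417A13Rik (0.52), Esx1, a placental homeobox factor (0.60), Ctla2a, a protease inhibitor (0.63), and Gjb2, a gap junction protein (0.64). Their mean log2 ratios lay between 3.14 and 3.63. A second Gjb2 probe gave only 0.38. The measure rests on 4 arrays and mostly finds genes of a like mean ratio.

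In the gene order of GRCm38.p6, Dgat2 is the next protein-coding gene to Mogat2. On the other side Map6 had a log2 ratio of -0.01 ± 0.06 and did not pass, and Serpinh1, the gene after it, had 1.95 ± 0.09. Apoe lies beside Apoc1, which encodes another small apolipoprotein and fell by 1.23 ± 0.04. Next in order were Apoc4, at -0.15 ± 0.10, and Apoc2, the cofactor of lipoprotein lipase, at -0.32 ± 0.17. All 3 passed as lower, and with median centring their ratios were -0.65, -0.18 and -0.21. Tomm40, on the other side of Apoe, was also lower, at -0.72 ± 0.08 (-0.13 with median centring). The next gene on that side, Nectin2, was higher, at 0.43 ± 0.06 (1.01 with median centring), and Bcam after it was lower, at -0.43 ± 0.14, but stood at 0.15 with median centring.

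The 5 lists of other lipid genes give the setting of these members, and their counts are to be read beside the shares of all genes. Of all 17190 genes tested, 41.7% were higher and 33.3% lower, with a median log2 ratio of 0.03. With median centring 9749 of all genes were higher and 798 lower. Of 21 tested genes of glycerolipid synthesis, 9 rose, 7 fell and 5 did not pass, with a median log2 ratio of 0.00, and with median centring 15 were higher and 1 lower. Gpat3 and Gpat4, which add the first acyl group to glycerol 3-phosphate, rose by 1.42 ± 0.23 and 1.14 ± 0.03, with 0.57 at each of the other Gpat4 probes. Soat1, which esterifies cholesterol, rose by 1.12 ± 0.04 at its brightest probe, but 1 of its 4 probes stood at -1.12. Lpin2, a phosphatidic acid phosphatase, rose by 0.71 ± 0.04, while its other probe did not pass at 0.09. Lpin1, of the same family, was lower at -0.60 ± 0.19 with loess (-0.05 with median centring). Agpat2 and Gpam, other acyltransferases of the glycerol 3-phosphate route, were lower at -0.51 ± 0.07 and -0.19 ± 0.13 with loess. They stood at 0.052 and 0.075 with median centring.

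Of 18 tested genes of lipid droplets and lipolysis, 7 rose, 8 fell and 3 did not pass, with a median of -0.01, and with median centring 9 were higher and 0 lower. Plin2, which coats lipid droplets, rose by 2.07 ± 0.08 (4.19-fold) and did so on 4 of 4 arrays. Mgll, which cleaves monoacylglycerol, the substrate of MOGAT enzymes, rose by 1.04 ± 0.15. Cidea, a droplet fusion protein, and Lipa, the lysosomal acid lipase, rose by 0.95 ± 0.17 and 0.77 ± 0.18. Plin5 and Plin3, coat proteins of the same family as Plin2, were lower with loess, at -0.63 ± 0.06 and -0.43 ± 0.04, and stood at -0.07 and 0.12 with median centring. The lipase Lipe was lower with loess, at -0.18 ± 0.08 and -0.34 at its 2 probes, and stood at -0.11 with median centring. The lipase Pnpla2 was lower at -0.10 ± 0.02 with loess, while its other probe did not pass at -0.09, and it stood at 0.49 with median centring.

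Of 22 tested apolipoproteins, receptors and plasma lipid factors, 7 rose, 7 fell and 8 did not pass, with a median of -0.01, and with median centring 11 were higher and 4 lower. Apoa1, Apoa4, Apoc3, Apoh and Lipc were among the listed genes not above background. P4hb, the small subunit that pairs with MTTP and also serves collagen folding, rose by 1.43 ± 0.06. Lrp2, the endocytic receptor megalin, rose by 1.90 ± 0.25, with 0.41 to 1.69 at its other probes. Abcg1, a sterol exporter, fell by 1.45 ± 0.19. The receptor Vldlr (-0.09 ± 0.13) did not pass. Of the partners of lipoprotein lipase, neither did Gpihbp1 (-0.06 ± 0.05), which anchors it to capillaries, nor Angptl4 (-0.05 ± 0.04), which inhibits it, and with median centring Vldlr stood at 0.23, Gpihbp1 at 0.23 and Angptl4 at 0.52. Lmf1, the factor that matures the lipase, was lower at -0.58 ± 0.03 with loess, like the cofactor Apoc2 above, and stood at -0.02 with median centring.

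Of 17 tested genes of fatty acid uptake, activation and binding, 9 rose, 4 fell and 4 did not pass, with a median of 0.15, and with median centring 11 were higher and 1 lower. Slc27a2, a fatty acid transporter and acyl-CoA synthetase, fell by 1.10 ± 0.10. Cav1, the caveolar coat protein, rose by 0.72 ± 0.11 at one probe and stood at 0.01 at the other. Acsl3, an acyl-CoA synthetase of lipid droplets, rose by 0.68 ± 0.10, and Got2, a mitochondrial aminotransferase also described as a fatty acid-binding membrane protein, by 0.63 ± 0.02. Fabp4, the adipocyte binding protein, had a signal of 126 ± 2.61 in butyrate and 89.0 ± 10.5 in LIF (SD, n = 4 each), where LIF met the background criterion on 0 of 4 arrays, and was at least 1.43-fold higher in butyrate.

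Of 14 tested transcriptional regulators of lipid genes, 8 rose, 5 fell and 1 did not pass, with a median of 0.22, and with median centring 9 were higher and 1 lower. Pparg, the nuclear receptor that drives adipocyte genes, rose by 1.94 ± 0.26 (3.83-fold) and did so on 4 of 4 arrays. Its partner Rxra rose by 1.07 ± 0.08, with 0.13 at another probe. Cebpb and Srebf1, which also act in fat cell and lipid synthesis programmes, rose by 0.91 ± 0.09 and 0.41 ± 0.05. Nr5a2, a nuclear receptor of bile acid and pluripotency genes, fell by 1.19 ± 0.21. Hnf4a, a regulator of apolipoprotein genes in liver and intestine, was lower at -0.15 ± 0.09 with overlapping groups at its brightest probe and at -0.42 at another. Ppara was not above background.

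**Figure D5:**
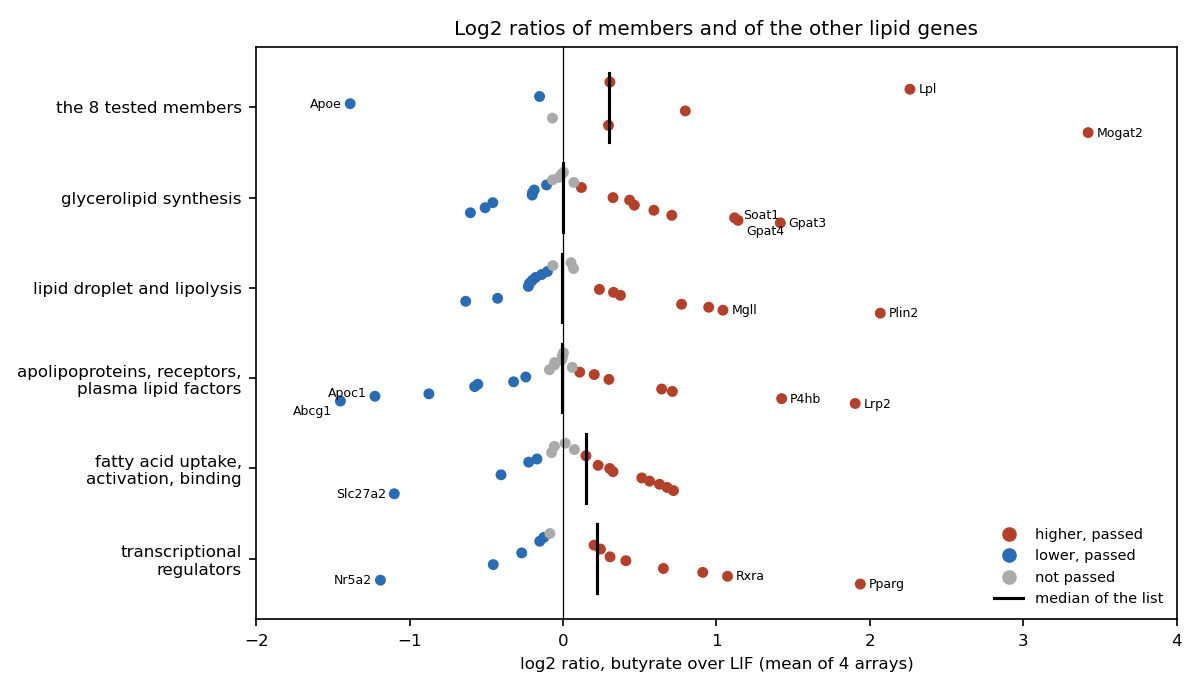
Mean log2 ratio of butyrate over LIF for the 8 tested members (top) and for the tested genes of 5 lists of other lipid genes (points), coloured by the call of the fit over all genes, with the median of each list as a bar. The lists centre between -0.01 and 0.22, and Mogat2 lies beyond every gene of the 5 lists.

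Markers of cell types that use these genes were read as well. In bulk RNA, fewer cells of a type and less RNA per cell cannot be told apart. The summed signals run over all listed markers, those not above background included. Each signal also carries the added offset of 50, so part of every sum is background. Of 12 enterocyte markers, 8 were well above background in butyrate and 6 in LIF, with summed signals of 2507 to 2668 in butyrate and 1652 to 1731 in LIF, while Muc13, Sis, Fabp1 and Cdh17 were not above background in either. Cdx2, a factor of intestine and trophoblast, was at 2.77 ± 0.45, and without it the sums were 1564 to 1603 in butyrate and 1515 to 1563 in LIF. The other 7 tested markers lay between -0.16 and 0.14. Of 10 adipocyte markers, 6 were well above background in butyrate and 5 in LIF, with sums of 1827 to 1879 in butyrate and 1091 to 1203 in LIF. Without Pparg the sums were 959 to 1014 in butyrate and 883 to 923 in LIF. Besides Pparg, Fabp4 (0.51 ± 0.14), Cidec (0.33 ± 0.07) and Cebpa (0.31 ± 0.12) passed as higher. Adipoq (-0.28 ± 0.11) and Lipe (-0.18 ± 0.08) passed as lower. Plin1 did not pass, and Cfd, Lep and Retn were not above background in either group. Of 10 muscle and heart markers, 9 were well above background in each group, with sums of 7402 to 8022 in butyrate and 3613 to 3846 in LIF. Without Actc1 (1.97 ± 0.12) and Myh7 (0.94 ± 0.07) the sums were 2316 to 2343 in butyrate and 1965 to 2073 in LIF. Myh6, Myl7, Myl2 and Tnnt2 also passed as higher, at 0.46, 0.23, 0.20 and 0.13. Ckm, Nppa, Myog and Tnni3 did not pass. Of 14 visceral endoderm markers, 11 were well above background in butyrate and 9 in LIF, with sums of 3810 to 3964 and 2939 to 3054. Sox17 (1.03), Foxa2 (0.69), Gata6 (0.68), Dab2 (0.64), Rbp4 (0.64) and Afp (0.25) passed as higher and Hnf4a (-0.15) as lower. Amn, Cubn, Gata4 and Apom did not pass, and Ttr, Apoa1 and Apoa4 were not above background in either. Of 10 macrophage markers, 5 were well above background in butyrate and 4 in LIF, with sums of 1334 to 1368 and 1192 to 1259. Csf1r (0.99 ± 0.31) passed as higher, with signals of 188 to 218 in butyrate and 93.4 to 129 in LIF. Lyz2 and Cd14 (0.22 each) passed as higher, Mrc1 (-0.46 ± 0.13) passed as lower, and Cd68 did not pass. Adgre1, Itgam, Ptprc, Fcgr1 and C1qa were not above background in either. Of 9 endothelial markers, 7 were well above background in butyrate and 6 in LIF, with sums of 1710 to 1780 and 1758 to 1942. Cdh5 (0.39) passed as higher, and Tek (-0.39), Eng (-0.18) and Esam (-0.17) as lower. For Cdh5, as for Fabp4, Afp and Lyz2 above, LIF was well above background on 0 of 4 arrays. These genes were tested through the butyrate channel alone, and their ratios rest on LIF signals near background. Gpihbp1, Kdr and Pecam1 did not pass, and Emcn and Tie1 were not above background in either. With median centring and no loess, enterocyte markers had 3 higher and 0 lower, and visceral endoderm markers 8 and 0. Adipocyte markers had 4 and 1, macrophage 3 and 1, muscle and heart 7 and 0, and endothelial 4 and 0. The signals of the groups overlapped for Adipoq, Hnf4a and Esam, which passed as lower with loess. The part of these cell types in the ratios of Mogat2, Lpl, Fabp3 and Apoe was not tested.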

How the data were processed

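RNA of 4 butyrate and 4 LIF samples was read on 4 two-colour arrays. The 8 deposited scanner files hold 4 scans, each filed under both of its samples. Agilent Feature Extraction 9.1 read the scans, per the submitters' processing notes. For every spot the deposited files hold the intensity of each channel (mean, local background and processed) and a log10 ratio of Cy5 over Cy3, background-subtracted and dye-normalized per the file headers. The authors' deposited value table holds log2 values. Each column tracked the processed signal of its sample's channel and had a median of 6.487. The sources used here do not name the tool that normalized it.

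The background was corrected with normexp (offset 50) in limma 3.58.1 under R 4.3.3, followed by loess within each array with control spots at weight 0. Signals are channel values after loess and Aquantile. Spots flagged as outliers were left out, spots of a probe were averaged, and probes well above background on at least 3 of 4 arrays in either channel were tested, 25662 of 41174. A gene was its brightest tested probe. limma's lmFit and eBayes were applied to the 4 log2 ratios, and p-values were adjusted over 17190 genes (Benjamini-Hochberg). The within-array ratio is the replicate block, since same-numbered samples share an array, and their deviations from the group means correlated at 0.159 to 0.307. Scan day and slide did not vary. The labels call the replicates independent without naming separate cultures, so the p-values cover only how these samples differ, which may be technical. Precision is limited by the number of arrays.

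The members and the gene lists were chosen with earlier results of these data known. Named genes are the members, up to 4 genes of each lipid list with the largest change that passed with 1 sign on the 4 arrays, a fixed set of lipid genes, and the 5 genes nearest to Mogat2. Some genes that this rule names are not reported here. Neighbouring genes, marker genes, Plin3, Plin5, Lmf1 and the pluripotency genes were named after their values were seen. Probes were named through RefSeq of GRCm38.p6, 22951 by accession, 6659 by symbol and 3109 by synonym, and 8455 kept the file's name. Alternatives were other background corrections, the scanner software's ratio, median centring, other filters, a mean over probes, another variance model, no replicate block, the authors' value table and each array left out. Figures were drawn with matplotlib 3.10.9.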

Additional observations from a re-analysis of the deposited data

Results flagged for a closer look

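In 5 of 79 groups of 4 values, 1 value lay far from the other 3 by Dixon's criterion, which chance alone meets in about 1 in 20 groups. The butyrate signal of the brightest Mogat1 probe was 122.8 in replicate 2, where the others lay between 128.4 and 129.3. The LIF signal of the brightest Dgat1 probe was 733.4 in replicate 1, where the others lay between 630.0 and 639.4. The butyrate signal of the brighter Lpl probe was 1453 in replicate 4, where the others lay between 1552 and 1570. The log2 ratio of Pparg was 1.55 on array 2, where the others lay between 2.04 and 2.09. The log2 ratio of Gjb2 was 2.72 on array 2, where the others lay between 3.74 and 3.82.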

How the results depend on the processing

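With median centring and no loess, 798 genes were lower, against 5716, and of the calls 92.4% were higher, against 55.7%. Under it 1 member was lower, glycerolipid synthesis had 15 higher and 1 lower, droplet and lipolysis genes 0 lower, apolipoproteins and receptors 11 higher and 4 lower, and the uptake genes and the regulators 1 lower each. Signs turned for Dgat1 (0.51), Agpat2 (0.052), Angptl4 (0.52), Gpam (0.075), Gpihbp1 (0.23), Pnpla2 (0.49) and Vldlr (0.23). That setting leaves out the loess, and the cause was not tested further. In the authors' values 11 glycerolipid genes were lower. Leaving out each array in turn gave 6523 to 7073 genes higher and 5046 to 5730 lower, 5 members higher and 1 to 2 lower. The 1 came without array 1, 3 or 4, where Mttp did not pass. With no replicate block 12506 genes passed, against 12889 in the paired fit, and no member call changed. Dgat1 passed as lower with the scanner software's ratio (-0.19), the mean of its probes (-0.12) and the authors' values (-0.20). Of 120 member values under alternatives, 112 kept their direction and side of the threshold. Some alternatives, such as the other filters and the variance model, left the ratio of Mttp at -0.15 and moved only its adjusted p. The 120 values are therefore not separate checks.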
